A study of Mus musculus with 18 samples.

Results

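The relative use of transcripts was examined in 46 gene clusters of mouse haematopoietic stem cells whose transcript composition differed between Old and Young pools while the summed level of the gene stayed within fixed limits at both later ages. The clusters were chosen on measured values. Of 28661 clusters with 55419 transcripts, 11967 held 2 or more transcripts. A total of 3932 of these had a mean level from 5 to 1000 CPM (counts scaled to library size by the trimmed mean of M values, TMM) and a ratio of mean levels from 0.8 to its reciprocal both for Mid over Young and for Old over Young. The share of a transcript was its deposited fraction over the sum for its cluster, which compares transcripts per length, and it was averaged over the files of a pool. A cluster was kept when the mean share of a transcript differed by 15 percentage points or more between Old and Young, with all 3 Old pools on one side of all 3 Young pools. The condition was met by 46 of 3932 clusters, or 1.17%, and by 69 of their 177 transcripts. The rule left out Abcg2, the dye pump of side population cells. The cluster that matched it best, below the limit for giving a name, differed by at most 0.629 points.

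The RNA came from lower side population cells (LSPs), a small bone marrow fraction enriched for haematopoietic stem cells that is sorted by exclusion of the dye Hoechst. The cells were taken from female wild-type C57BL/6 mice with no transgene or treatment, at 8 to 12 weeks (Young), about 12 months (Mid) and about 24 months (Old), with 3 pools of mice per age. Polyadenylated RNA was sequenced with the Illumina TruSeq kit, and by the methods of the study DNA was taken from the same cells and more mice were pooled for a Young sample than for a Mid or Old sample. The p-values below measure the spread between pools, and in pooled bulk RNA a different mix of cells and a different amount of a transcript per cell cannot be told apart.

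Young 1 stood apart from the other 8 pools. Its mean correlation of log levels with the others was 0.946, against 0.97 to 0.98 for the remaining pools. It had the lowest total, 74819481 estimated counts, where the highest was 200461974 in Mid 2. Young 1 and Old 1 were deposited as 1 file each, whereas each of the other 7 pools had a pair of files. Share differences between Old and Young are therefore given with and without Young 1.

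Alternative promoters, alternative splicing and alternative polyadenylation sites let 1 gene give several transcripts. The forms can differ in coding sequence, in the untranslated regions that govern stability and translation, or in both. A total for the gene does not show such a difference, because a decrease of one form is offset by an increase of another. In blood cells, alternative first exons and alternative cassette exons are known from genes for adhesion molecules, kinases and glycosyltransferases.

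The tables identify transcripts and clusters without gene symbols. Symbols were inferred from transcript lengths implied by the values and from the order of the clusters along the genome, and 20 of the 46 clusters could be named. The other 26 are given by transcript identifier or by counts. In 23 clusters the transcript with the largest difference among those that met the rule, called the leading transcript here, had a higher share in Old than in Young, and in 23 a lower one. The median size of the difference was 19.5 points and the range 15.04 to 46.6 points. It was 20 points or more in 22 clusters and 30 points or more in 6. In 15 of the 46 clusters the most abundant form in Young was not the most abundant form in Old. These values chose the clusters and are a description with no test.

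**Figure D1:**
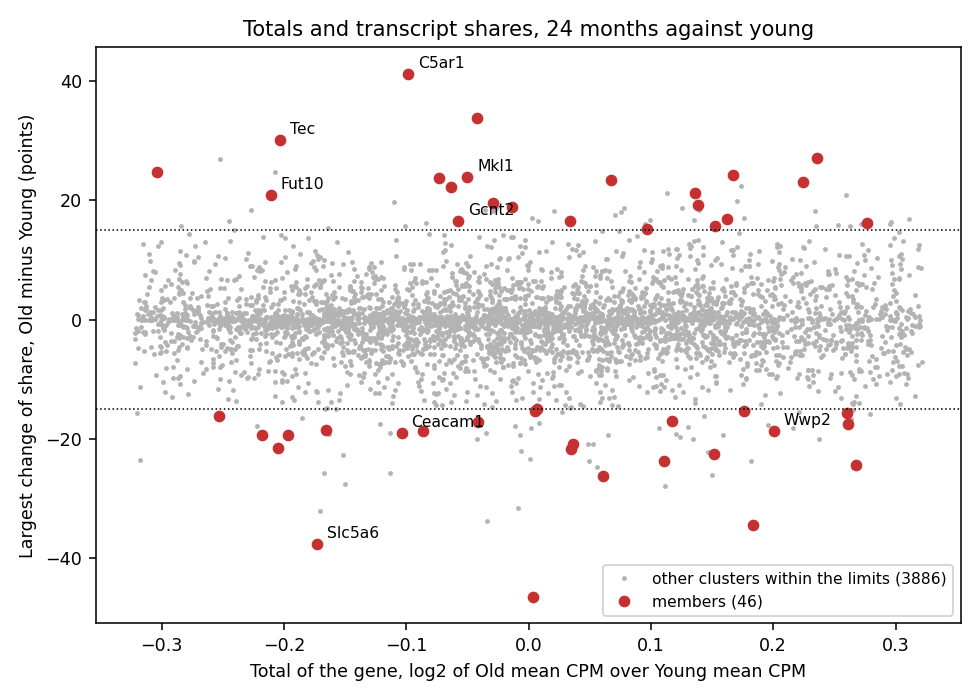
Each point is a gene cluster within the limits on level and totals. The horizontal axis gives the log2 ratio of the mean total in Old over Young, the vertical axis the largest Old minus Young difference in transcript share in percentage points, and the dotted lines mark 15 points; the 46 chosen clusters (red) lie on both sides of 0, from 15.04 to 46.6 points, among 3886 others (grey).

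The chosen genes were lower in level than the rest. Their median mean level was 15.2 CPM with quartiles of 9.66 and 24.9 CPM, against 38.9 CPM for the 3886 other clusters within the limits, while the median number of transcripts was 3 in both sets. By the rule, totals were close between ages, with Mid over Young from 0.816 to 1.24 and Old over Young from 0.810 to 1.21. Just inside the limit of 15 points were Zfp513 with -15.4, Parp9 with 15.3 and Diexf with -15.04 points. Just outside it were clusters with -14.9, 14.8 and -14.8 points. Among all 3932 clusters 132 had a difference of 15 points or more with or without overlap of the pools.

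The Mid mean of the leading transcript lay between the Young and Old means in 41 of the 46 clusters and beyond the Old mean in 5. The rule chose clusters with Young and Old means far apart, which favours a Mid mean between them, so the count is a description. Taking in each cluster the transcript with the largest Old minus Young difference, whether or not it met the rule, the Mid mean lay between in 40 of the 46 and in 36.1% of the 3886 other clusters within the limits. Over the 23 leading transcripts with a higher share in Old, the median of the group means was 26.8% in Young, 44.2% in Mid and 51.4% in Old. Over the 23 with a lower share it was 47.8%, 26.9% and 28.8%. The criterion of 15 points and no overlap was met between Mid and Young by 201 of the 3932 clusters (5.11%), 18 of them among the 46, and between Old and Mid by 221 (5.62%), 6 of them among the 46. The first comparison shares the Young pools with the choice of the genes and the second shares the Old pools, so these counts are a description.

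Most of the chosen genes had Young 1 at the end of the range. In 40 of the 46 clusters (87.0%) the share of the leading transcript in Young 1 lay outside the range of all other 8 pools. The same held for 61.2% of the 3886 other clusters, taking in each the transcript with the largest Old minus Young difference. Without Young 1 the difference stayed at 15 points or more in 23 of 46 clusters and was under 10 points in 8, with a median of 14.4 points. The whole rule, with its limits on totals, was met by 16 of the 46 without Young 1. Among the named genes still at 15 points or more, C5ar1, Ceacam1, Mkl1 and Tmem19 had totals outside the limits without Young 1. In 1 unnamed cluster the difference was 0, because the leading transcript had 58.1% of the gene in Young 1 and at most 0.985% in any other pool. Its estimated count was 0 in 7 of the 9 pools, so counts do not resolve its separation of Old from Young 2 and Young 3. With shares from counts this cluster did not meet the rule. The part of depth or library quality of Young 1 in these shares was not tested.

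The pairs of files gave a measure of technical error for 7 of the 9 pools. Young 1 and Old 1, with 1 file each, have no such measure, and the single-file treatments below kept that file for them. Over the 46 leading transcripts, the median difference in share between the files of a pool was 5.72 points, and the largest in any pool was 51.3 points. In 12 of the 46 clusters the largest such difference exceeded the difference between Old and Young, and in 5 it was under 1/3 of it. The leading transcript was listed at 0 in at least 1 pool in 11 clusters, and had under 100 estimated counts in a pool in 20. A group of 10 clusters met the rule in all of 5 other treatments of the data, namely shares from counts, either file of a pair alone, leaving out Young 1, and only pools with a pair of files. It held Gcnt2, Wwp2, Fut10, Slc5a6 and 6 unnamed clusters. All 5 treatments use the same pools. Where pools were only left out, a chosen transcript could not gain an overlap of Old and Young, so only size, level and totals could fail.

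**Figure D2:**
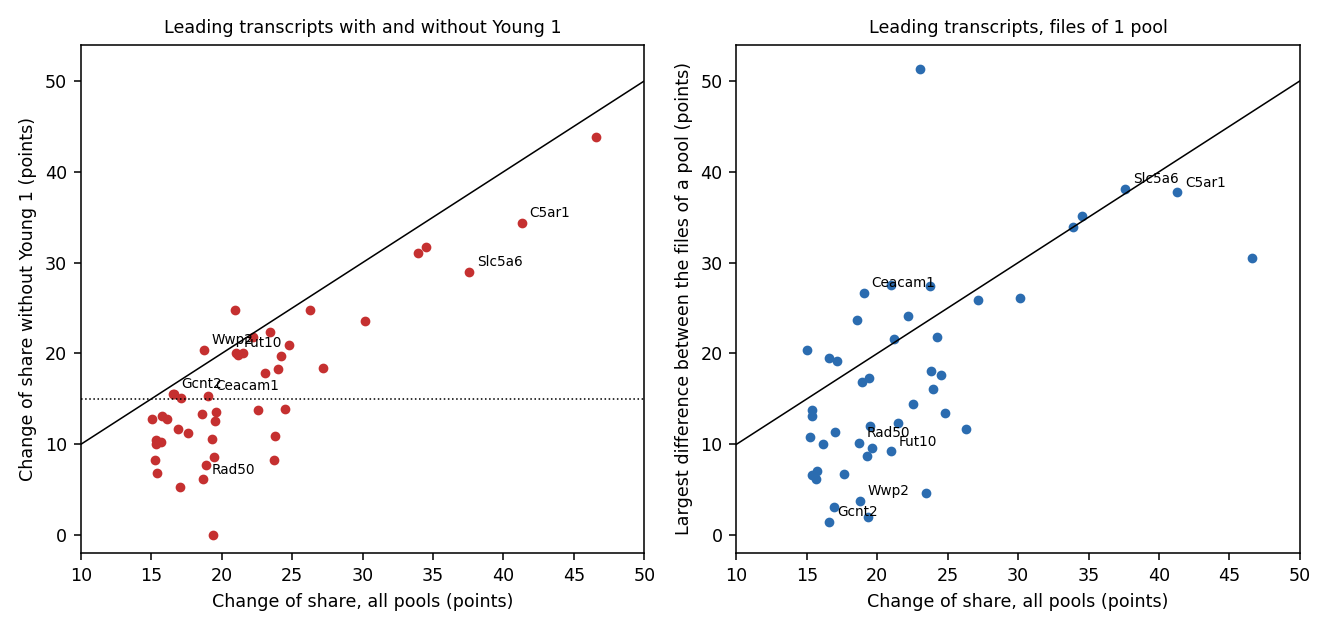
Each point is the leading transcript of 1 of the 46 clusters, with the size of its Old minus Young difference in points on the horizontal axis. The vertical axis gives the same difference without Young 1 on the left, and on the right the largest difference between the files of a pool; solid lines mark equality and the dotted line 15 points, and points on the left lie mostly below the line while Gcnt2 and Wwp2 lie far below it on the right.

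Among enzymes of glycan synthesis, Gcnt2, which makes the branched I antigen on cell surface glycans, had the most even shares. It was the most abundant of the 46 genes, with a mean level of 215 CPM. The gene lies on the plus strand at chr13:40955501-41056260 (NCBIM37, mm9) and has 3 alternative first exons, each with 919 coding bases, joined to the same 2 downstream exons. Each of the 3 forms has 1203 coding bases, and the coding parts of the first exons were 63.0% to 67.9% identical to each other by position. The first 60 coding bases of each are shown because they tell the forms apart, with the start codon in capitals. They lie at chr13:40955724-40955783, chr13:40982736-40982795 and chr13:41013252-41013311.
Gcnt2 uc007qel.1: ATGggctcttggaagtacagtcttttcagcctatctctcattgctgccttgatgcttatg
Gcnt2 uc007qem.1: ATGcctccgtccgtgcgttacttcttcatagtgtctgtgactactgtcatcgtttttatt
Gcnt2 uc007qeo.1: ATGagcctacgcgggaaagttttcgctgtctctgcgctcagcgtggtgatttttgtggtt

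The share of the upstream form uc007qel.1 was 14.8%, 18.0% and 17.8% in the Young pools, 21.3%, 17.3% and 23.6% in the Mid pools, and 30.4%, 33.6% and 36.3% in the Old pools. All Old pools lay above all Young and Mid pools, which overlapped with each other. The downstream form uc007qeo.1 had a mean share of 61.1% ± 4.31 in Young, 55.3% ± 2.38 in Mid and 48.5% ± 5.15 in Old (SD, n = 3 each). Its Young and Old pools did not overlap, while the middle form uc007qem.1 had 21.4% ± 2.30 in Young and 17.8% ± 2.06 in Old. For uc007qel.1 the difference between Old and Young was 16.6 points, 15.5 points without Young 1, and the files of a pool differed by at most 1.43 points. The estimated counts behind that form were at least 2729 per pool. Its use in Old against Mid had a log2 difference of 0.68 (SE 0.41, adjusted p = 1.0, edgeR) and was not called over the 25494 transcripts tested. The Old and Mid pools did not overlap and their means differed by 12.7 points. The rule did not compare Old with Mid, but the Old pools entered the choice of this transcript, so these values are a description. The total of the gene was 231 ± 61.3 CPM in Young, 193 ± 8.53 CPM in Mid and 221 ± 48.4 CPM in Old.

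**Figure D3:**
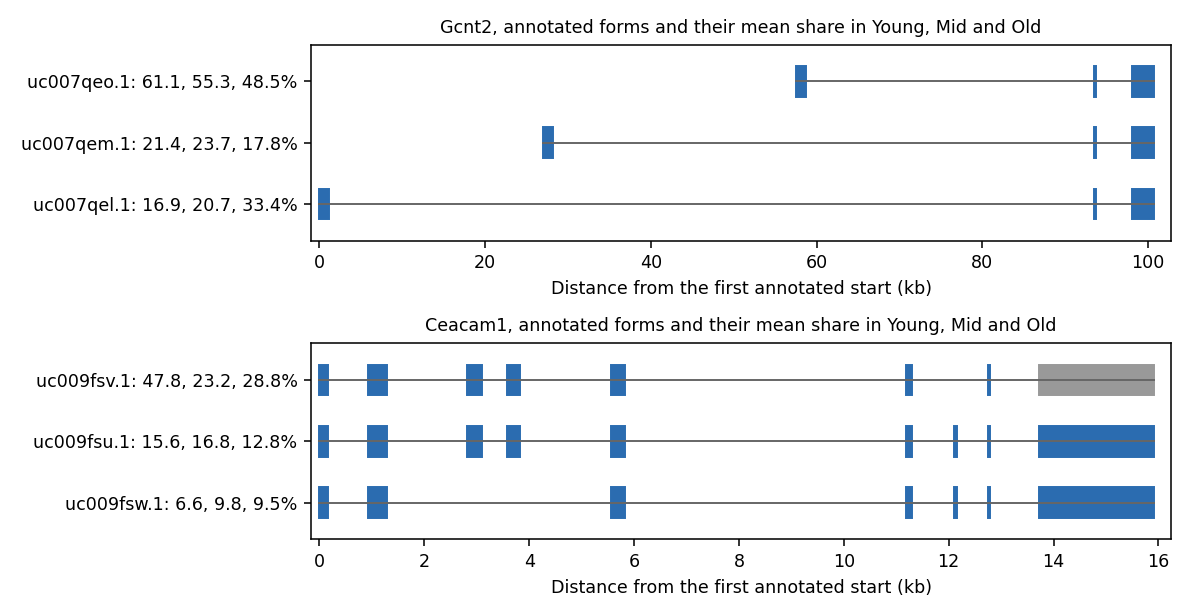
Exons of the annotated forms of Gcnt2 and Ceacam1 that matched a measured transcript are drawn as boxes at their distance in kb from the first annotated start, in the direction of transcription, blue with coding bases and grey with none. The labels give the mean share in Young, Mid and Old, and the most upstream first exon of Gcnt2 goes from 16.9% to 20.7% to 33.4%.

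Fut10, a member of the fucosyltransferase family, was a gene of low level, at 7.19 CPM. Its form uc009ljk.1 had 0%, 3.23% and 2.58% of the gene in the Young pools, 10.6%, 19.5% and 1.41% in the Mid pools, and 17.0%, 26.2% and 25.6% in the Old pools. The Old pools lay above all Young pools, and the Mid pools spread over both ranges. The difference was 20.99 points, and 20.02 points without Young 1. Form uc009ljj.1 held 67.2% ± 5.01 in Young and 61.6% ± 3.08 in Old (SD, n = 3), and uc009ljl.1 21.2% ± 7.28 and 9.01% ± 1.98. The use of uc009ljk.1 in Mid against Young had a log2 difference of 2.50 (SE 1.18, adjusted p = 1.0, edgeR).

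The annotated forms of Fut10 share their coding sequence up to the base before chr8:32346903 (plus strand), where uc009ljj.1 reads on in the same exon and uc009ljk.1 continues in another last exon at chr8:32370372-32371955. They have 1308 and 1443 coding bases. The last 20 shared bases are shown in lower case, and the 40 bases that follow in each form are in capitals, at chr8:32346903-32346942 and chr8:32370372-32370411.
Fut10 uc009ljj.1: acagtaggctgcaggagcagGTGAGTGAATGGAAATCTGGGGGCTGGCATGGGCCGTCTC
Fut10 uc009ljk.1: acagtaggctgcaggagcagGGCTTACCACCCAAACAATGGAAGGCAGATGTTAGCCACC

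Among surface receptors and adhesion molecules, Ceacam1 had a lower summed share of the matched forms with the long extracellular part in Old than in Young. This adhesion molecule of the immunoglobulin family is known to occur with a long or a short extracellular part and with a long or a short cytoplasmic tail. It lies on the minus strand at chr7:26246721-26262644 and had a mean level of 19.8 CPM over 9 transcripts, 7.38 CPM in Young 1. The level was 31.5 and 22.7 CPM in Young 2 and Young 3, and without Young 1 the totals were outside the limits of the rule. The form uc009fsv.1 (3683 bp) had 55.3%, 45.4% and 42.8% in the Young pools, 17.1%, 19.97% and 32.7% in the Mid pools, and 21.5%, 30.5% and 34.4% in the Old pools. All Mid and Old pools lay below all Young pools. The difference between Old and Young was -19.0 points, -15.3 points without Young 1, and the largest difference between files of a pool was 26.7 points, larger than that between the ages.

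The annotated structure of uc009fsv.1 contains exons of 285 and 255 coding bases that uc009fsw.1 (3196 bp) lacks. Form uc009fsx.1 (3143 bp) is shorter than uc009fsv.1 by exactly the 540 bases of both exons, and was set beside it by that length alone. The summed share of the forms with both exons, uc009fsv.1 and uc009fsu.1, was 59.8%, 64.9% and 65.7% in the Young pools, 38.3%, 31.6% and 50.1% in the Mid pools, and 35.2%, 38.4% and 51.2% in the Old pools. These sums did not overlap between Young and either later age, and Mid and Old overlapped. The summed share of uc009fsw.1 and uc009fsx.1 was 35.5%, 24.2% and 29.1% in the Young pools, 44.7%, 44.1% and 35.9% in the Mid pools, and 56.2%, 36.5% and 33.7% in the Old pools. Young and Old overlapped for that sum. The 4 forms together held 93.0% ± 3.43 of the gene in Young, 81.6% ± 5.32 in Mid and 83.7% ± 8.34 in Old (SD, n = 3), and the rest was in transcripts with no matched structure. Whether those transcripts hold both exons is not known, so the sums describe the 4 forms and not the whole gene. The rule chose uc009fsv.1, a part of the first sum, by its lower share in Old. The exon of 53 bases in the cytoplasmic part, present in uc009fsu.1 and uc009fsw.1, had 5.68%, 26.2% and 34.9% of the gene in the Young pools and 30.7%, 15.2% and 21.01% in the Old pools. The means were 22.2% in Young, 30.5% in Young without Young 1, and 22.3% in Old. The exons are shown in capitals, those of 285 and 255 bases with 2 intron bases on either side and that of 53 bases with 20, at chr7:26259537-26259825, chr7:26258815-26259073 and chr7:26250467-26250559 on the minus strand.
Ceacam1 exon of 285 bp: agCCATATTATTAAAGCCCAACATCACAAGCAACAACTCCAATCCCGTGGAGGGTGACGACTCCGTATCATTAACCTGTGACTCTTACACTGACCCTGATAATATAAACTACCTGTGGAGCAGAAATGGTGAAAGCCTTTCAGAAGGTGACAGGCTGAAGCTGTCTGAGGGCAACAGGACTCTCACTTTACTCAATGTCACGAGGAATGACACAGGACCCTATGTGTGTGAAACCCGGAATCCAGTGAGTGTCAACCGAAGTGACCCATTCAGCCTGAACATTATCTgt
Ceacam1 exon of 255 bp: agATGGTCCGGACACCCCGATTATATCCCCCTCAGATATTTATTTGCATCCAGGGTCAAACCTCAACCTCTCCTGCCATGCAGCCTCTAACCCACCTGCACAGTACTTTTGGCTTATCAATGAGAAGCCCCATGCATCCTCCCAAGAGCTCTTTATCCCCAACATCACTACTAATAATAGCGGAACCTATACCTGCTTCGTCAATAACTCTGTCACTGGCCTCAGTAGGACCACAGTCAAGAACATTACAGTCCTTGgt
Ceacam1 cytoplasmic exon: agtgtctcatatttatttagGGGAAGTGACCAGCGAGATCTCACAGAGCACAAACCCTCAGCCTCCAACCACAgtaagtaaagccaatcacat

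C5ar1, the receptor of the complement fragment C5a, had the largest difference of a named gene. Its form uc009fhl.2 had 0%, 20.6% and 21.3% in the Young pools, 87.7%, 32.7% and 16.9% in the Mid pools, and 36.3%, 59.0% and 70.4% in the Old pools. All Old pools lay above the Young pools, and the Mid pools overlapped with both. The difference was 41.3 points and 34.3 points without Young 1, and files of a pool differed by up to 37.7 points. The total was 10.2 CPM on average, 6.23 CPM in Young 1 and 4.23 CPM in Mid 1. It was 13.4 and 13.2 CPM in Young 2 and Young 3 and 9.12 to 11.8 CPM in Old. Without Young 1 the totals were outside the limits of the rule. The annotated counterparts of both forms share their 1053 coding bases and differ in the exons before the start codon, in chr7:16832092-16844889 on the minus strand.

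Slc5a6 encodes a sodium-dependent transporter for biotin and pantothenate. Its form uc008wwv.1 had 87.9%, 79.1% and 45.3% in the Young pools, 51.6%, 52.1% and 34.9% in the Mid pools, and 36.2%, 42.2% and 21.04% in the Old pools. Young and Old did not overlap, while Young 3 lay within the Mid range. The form uc008wwt.2 went the other way, with 19.1% ± 9.498 in Young, 35.0% ± 10.3 in Mid and 52.8% ± 17.6 in Old (SD, n = 3), and became the most abundant one. The difference of uc008wwv.1 was -37.6 points, -29.0 points without Young 1, at a mean level of 9.75 CPM and with files that differed by up to 38.1 points. The annotated counterparts of uc008wwv.1 and uc008wwu.1 have the same 1902 coding bases and different first exons, at chr5:31351125-31351297 and chr5:31350545-31350935 on the minus strand. No annotated structure matched uc008wwt.2.

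Slc16a3, the lactate exporter MCT4, and Tmem19, which encodes a transmembrane protein, depended more on Young 1. For Slc16a3 uc007muy.1 the share was 58.6% in Young 1, 23.2% and 29.2% in the other Young pools, and 15.04% to 19.0% in Old. The difference of -19.4 points was -8.61 points without Young 1, and files of a pool differed by up to 17.3 points. For Tmem19 uc007hbd.1 the share was 5.57% in Young 1, 29.5% and 34.5% in the other Young pools, and 62.3%, 47.7% and 41.2% in Old. The difference of 27.2 points was 18.4 points without Young 1, but the totals of Tmem19 were then outside the limits of the rule. Its files of a pool differed by up to 25.9 points.

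Among genes of signalling and protein turnover, Wwp2 had the 1 transcript that edgeR called in the test of usage in Mid against Young. Wwp2 is a ubiquitin ligase of the HECT family, here at chr8:109960298-110082494 on the plus strand, with a mean level of 91.8 CPM. The longer form uc009nhv.1 (4281 bp, 2610 coding bases) had 91.2%, 96.2% and 95.9% in the Young pools, 75.9%, 75.7% and 77.8% in the Mid pools, and 70.8%, 76.2% and 80.1% in the Old pools. The shorter form uc009nhx.1 (3324 bp) had 3.07%, 1.36% and 2.36% in the Young pools, 14.5%, 16.9% and 15.2% in the Mid pools, and 24.0%, 15.5% and 15.7% in the Old pools. Both later ages lay apart from Young for each form, and Mid and Old overlapped. The difference of uc009nhv.1 between Old and Young was -18.7 points and -20.4 points without Young 1. Files of a pool differed by at most 3.79 points for uc009nhx.1. No annotated structure matched uc009nhx.1, and the name of the gene rests on 1 length within 2 bp and on its place in the genome order.

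Relative to the other transcripts of its cluster, uc009nhx.1 was used more in Mid than in Young, by 2.88 on the log2 scale (SE 0.70, adjusted p = 0.0249, edgeR). The adjusted p of edgeR was 0.00012 without Young 1. It was 0.198 without Young 2, 0.126 without Young 3, 0.131 without Mid 1, 0.196 without Mid 2 and 0.153 without Mid 3, with log2 differences from 2.60 to 3.13 over all 6 of these fits. It was 0.0598 in the edgeR fit of Young and Mid alone. The Young pools also entered the choice of the gene, on the same transcript. In Old against Mid the log2 difference was 0.23 (SE 0.65, adjusted p = 1.0, edgeR).

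**Figure D4:**
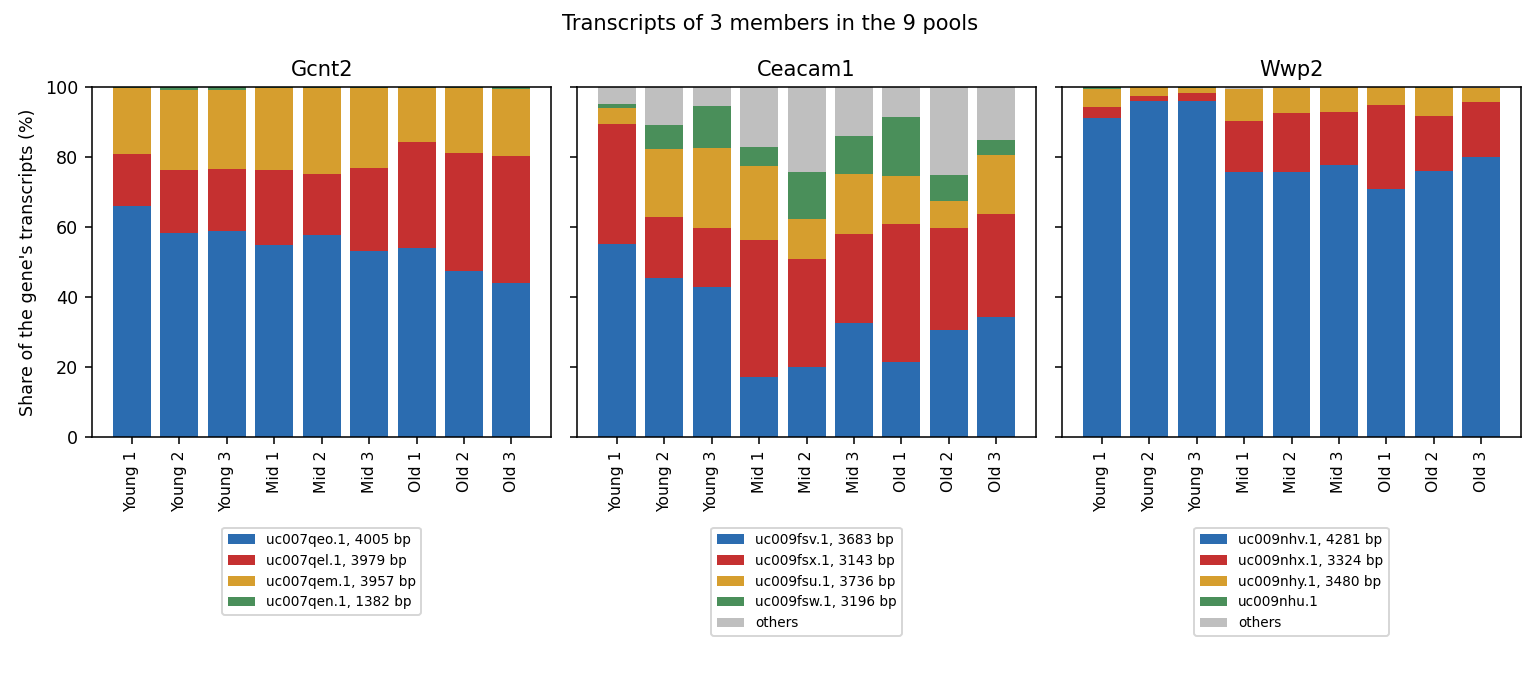
Stacked bars give the share of each transcript, in percent of the gene, in the 9 pools for Gcnt2, Ceacam1 and Wwp2. The red part is uc007qel.1, uc009fsx.1 and uc009nhx.1; for Wwp2 it is 1.36% to 3.07% in Young and 14.5% to 24.0% in Mid and Old, and for Gcnt2 it is 30.4% or more in Old only.

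Over all 25494 transcripts tested, edgeR called 65 in Mid against Young (0.255%) at an adjusted p under 0.05, and 1 of the 68 transcripts of the chosen genes that passed the limit and could be tested. DESeq2 called 754 of the 24600 transcripts with an adjusted p and 9 of the 68, and limma 327 of 25494 and 4. At an unadjusted p under 0.05 in edgeR there were 5 of 68 (7.35%), against 3.97% of all transcripts. Because the Young pools were part of the choice, these counts are not independent of the rule. In Old against Mid edgeR called 47 transcripts (0.184%) and none of the 68. At an unadjusted p under 0.05 in edgeR there were 0 of 68, against 2.78% of all transcripts. DESeq2 called 461 of the 24600 transcripts with an adjusted p and 2 of the 68, and limma 185 of 25494 and 1. The Old pools were part of the choice, so these counts are not independent of the rule either. In Old against Young, the contrast the rule used, edgeR called 8 of all transcripts (0.0314%), 1 of them among the 68.

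Tec, a tyrosine kinase of haematopoietic cells, had 7 transcripts in its cluster. The form uc008xsd.2 had 77.7%, 47.7% and 55.4% in the Young pools, 24.3%, 9.76% and 3.74% in the Mid pools, and 43.4%, 47.0% and 37.1% in the Old pools. The form uc008xsf.2 had 13.1% ± 16.9 in Young, 34.6% ± 10.2 in Mid and 43.3% ± 9.38 in Old (SD, n = 3), and uc008xsa.2 had 28.8% to 37.8% in Mid but 0% to 7.38% in the Young and Old pools. The Mid pools lay apart from all others for uc008xsa.2, which was not past the limit of the rule. The difference of uc008xsf.2 between Old and Young was 30.2 points and 23.6 points without Young 1, and files of a pool differed by up to 26.1 points. The use of uc008xsa.2 in Mid against Young had a log2 difference of 3.94 (SE 1.92, adjusted p = 1.0, edgeR), and in Old against Mid of -3.77 (SE 1.90, adjusted p = 1.0, edgeR). The gene had a mean level of 16.0 CPM, and uc008xsa.2 was listed at 0 in 3 pools.

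Ppp2r5e encodes a regulatory subunit of protein phosphatase 2A. Its longest form uc007nxe.1 (4810 bp) had 58.6%, 67.4% and 65.7% in the Young pools, 74.3%, 77.7% and 73.4% in the Mid pools, and 83.1%, 78.9% and 76.9% in the Old pools, while the form of 1354 bp, uc007nxh.1, had 31.7% ± 2.24, 24.6% ± 2.39 and 19.2% ± 2.28 (SD, n = 3). Neither later age overlapped with Young for either form. The difference of uc007nxe.1 was 15.7 points, 13.1 points without Young 1 and 8.88 points when shares were taken from counts.

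Armc8, of the CTLH ubiquitin ligase complex, and Arhgap12, a GTPase-activating protein, each had a form shorter than the most abundant one with a lower share at both later ages. Armc8 uc009reg.1 (3629 bp) had 41.6%, 27.4% and 23.6% in Young, 10.6% to 19.1% in Mid and 13.3% to 17.5% in Old, a difference of -15.7 points and of -10.3 points without Young 1. Arhgap12 uc008dze.1 (1539 bp) had 40.9%, 24.9% and 25.2% in Young, 4.59% to 9.61% in Mid and 7.90% to 19.2% in Old, a difference of -15.4 points, of -10.1 points without Young 1 and of -7.88 points with shares from counts. In both genes all Mid and Old pools lay below all Young pools.

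Among nuclear genes, Mkl1, a coactivator of serum response factor, had uc007wwd.1 at 23.5%, 40.1% and 41.1% in the Young pools, 56.0%, 44.1% and 44.6% in the Mid pools, and 42.2%, 66.8% and 67.5% in the Old pools. Its difference was 24.0 points, 18.3 points without Young 1, with Old 1 close to the Young pools. Without Young 1 the totals of Mkl1 were outside the limits of the rule. Tle1, a corepressor of the Groucho family with 10 transcripts, had uc008tij.2 (2124 bp) at 59.5%, 46.5% and 52.3% in Young, 45.5% to 48.9% in Mid and 31.1%, 34.1% and 44.7% in Old. The form with the largest gain, uc008tik.2 (2120 bp), differed from it by 4 bp in length. The difference of uc008tij.2 was -16.1 points and -12.7 points without Young 1.

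Zfp513, a zinc finger protein, was made in forms that begin at different start codons. On the minus strand of chromosome 5, uc008wxn.1 starts with 49 coding bases at chr5:31504112-31504160 and uc008wxo.2 with 55 at chr5:31504360-31504414, and both go on in the same coding bases, to 1617 and 1623 in all. These unshared coding bases are shown with the start codon in capitals.
Zfp513 uc008wxn.1: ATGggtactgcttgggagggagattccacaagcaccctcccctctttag
Zfp513 uc008wxo.2: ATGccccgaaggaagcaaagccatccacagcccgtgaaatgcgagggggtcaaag
The share of uc008wxn.1 was 67.1%, 52.4% and 52.7% in the Young pools, 47.2%, 50.6% and 42.2% in the Mid pools, and 37.3%, 48.5% and 40.4% in the Old pools. All Mid and Old pools lay below the Young pools. Without Young 1 the difference of -15.4 points was -10.5 points, and the files of a pool differed by up to 13.1 points.

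Zfp280c, a further zinc finger gene, had uc009tcl.1 at 25.9%, 22.7% and 16.7% in the Young pools, 0%, 20.5% and 18.4% in the Mid pools, and 0.116%, 3.61% and 10.2% in the Old pools. The difference was -17.1 points and -15.05 points without Young 1, and it was -11.0 points from the later file of each pair and -23.2 points from the other file. Files of a pool differed by up to 19.2 points. The form uc009tcm.2, with an annotated coding exon of 150 bases and not 177, had 47.6% ± 2.85 in Young and 55.1% ± 5.86 in Old (SD, n = 3).

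Rad50, of the MRN complex of DNA repair, depended on Young 1. The form uc007iwu.1 (1906 bp) had 49.99% in Young 1, 16.2% and 8.43% in the other Young pools, and 5.05% to 8.13% in Old, and its difference of -18.7 points was -6.13 points without Young 1 and -9.90 points with shares from counts. The form uc007iws.1 (1992 bp) had 29.8%, 38.6% and 27.1% in Mid but 1.03% to 8.08% in Young and 3.49% to 11.9% in Old. The Mid pools lay above all others for that form, with a log2 difference in use of 3.14 in Mid against Young (SE 1.22, adjusted p = 0.561, edgeR).

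Parp9, a protein of ADP-ribosylation signalling, and Diexf, a ribosome biogenesis factor, lay near the limit of the rule. Parp9 uc007zby.1 had 64.4% in Young 1, 89.2% and 81.4% in the other Young pools, and 98.3%, 89.5% and 92.9% in Old, so that the difference of 15.3 points was 8.29 points without Young 1. Diexf uc011wyz.1 had 0%, 8.48% and 4.74% in the Young pools, 28.3%, 13.3% and 26.3% in the Mid pools, and 28.6%, 17.7% and 12.0% in the Old pools. Its difference of 15.04 points was 12.8 points without Young 1, and files of a pool differed by up to 20.4 points, more than the ages did. The predicted gene AW209491 had uc007pnm.2 at 0%, 0% and 8.38% in the Young pools, 16.8%, 9.58% and 0.0278% in the Mid pools, and 47.4%, 13.9% and 11.5% in the Old pools, with Old 1 far above the other pools. Its difference of 21.5 points was 20.1 points without Young 1 and 9.92 points without Old 1.

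With only the pools that have a pair of files, without Young 1 and Old 1, the differences of 11 of the 20 named genes were smaller by more than 1.5 times. They were then 12.4 points for Tmem19, 8.52 for AW209491, 5.92 for Parp9 and 8.24 for Diexf. For the transcripts with a lower share in Old they were -7.35 points for Slc16a3, -11.6 for Ceacam1, -7.12 for Rad50, -9.99 for Tle1, -9.33 for Armc8, -6.54 for Arhgap12 and -8.12 for Zfp513. The direction is fixed by the rule, since the Old pools lay to one side of the Young pools.

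**Figure D5:**
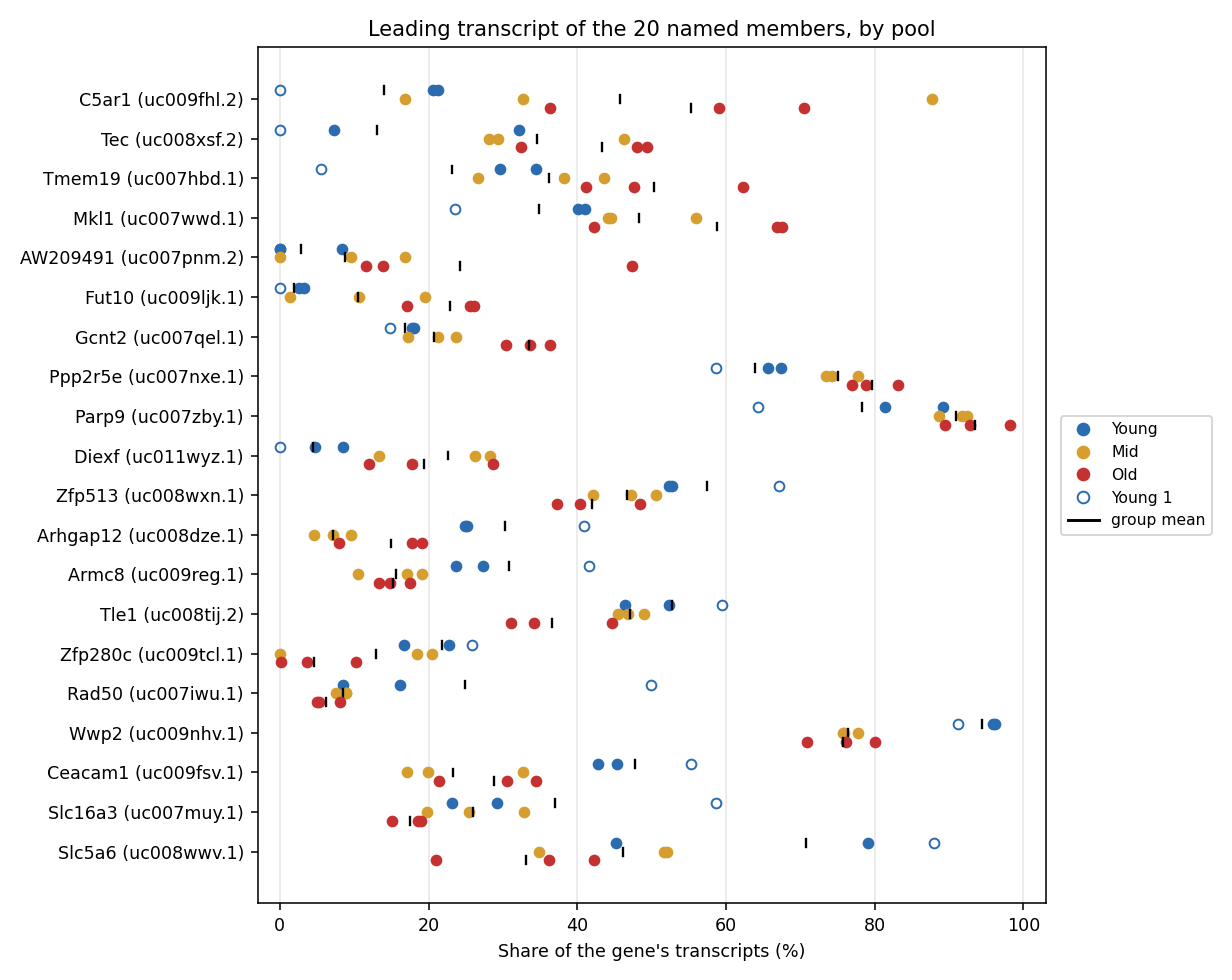
The share of the leading transcript of each of the 20 named genes is plotted in percent for every pool, with Young in blue (Young 1 open), Mid in yellow, Old in red and the group means as black ticks. Old and Young pools do not overlap in any row, as the rule required, and in most rows Young 1 is the pool farthest from Old.

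Of the 26 unnamed clusters, 2 are described because they had the largest difference of all and the highest level among the unnamed ones that met the rule in all 5 other treatments. In the first, at 6.26 CPM, uc012bms.1 (1702 bp) had 88.8%, 83.4% and 77.8% in the Young pools, 75.6%, 78.8% and 70.8% in the Mid pools, and 11.8%, 45.0% and 53.3% in the Old pools. Its partner uc008htb.1 (1832 bp) had 9.21%, 15.3% and 19.97% in the Young pools, 21.3%, 18.8% and 28.0% in the Mid pools, and 84.5%, 51.0% and 43.9% in the Old pools. The Old pools lay apart from all Young and Mid pools for both forms. The difference of uc012bms.1 was -46.6 points, -43.9 points without Young 1, and its lowest count in a pool was 34.0. In Old against Mid the use of uc008htb.1 had a log2 difference of 1.22 (SE 1.05, adjusted p = 1.0, edgeR).

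In the second unnamed cluster, at 78.0 CPM, uc008kcv.1 (4440 bp) had 78.9%, 77.4% and 71.3% in the Young pools, 51.5%, 41.5% and 51.6% in the Mid pools, and 51.7%, 47.9% and 49.0% in the Old pools. Its partner uc008kcw.1 (4397 bp) had 10.3%, 15.2% and 19.8% in the Young pools, 45.3%, 55.0% and 42.4% in the Mid pools, and 30.5%, 44.1% and 44.6% in the Old pools. Both later ages lay apart from Young for both forms. The difference of uc008kcv.1 between Old and Young was -26.3 points and -24.8 points without Young 1. The use of uc008kcw.1 in Mid against Young had a log2 difference of 1.65 (SE 0.49, adjusted p = 0.135, edgeR).

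The forms with a higher share were not of one length class. Among the 45 clusters with lengths for both, the transcript with the largest gain from Young to Old was longer than the one with the largest loss in 25 and shorter in 19, with a median difference of 21 bp. The lengths differed by 500 bp or more in 11 clusters, the gaining form being longer in 8 and shorter in 3, and by 5 bp or less in 5. The largest difference was 4741 bp.

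The totals of splicing and 3' end processing factors, which choose among such forms, were compared between Old and Young. Of 75 listed genes, 24 could be named in the files, among them Srsf5, Hnrnpf, Hnrnpl, Mbnl1, 3 SF3B subunits and 5 Cpsf subunits. None of the 24 passed an adjusted p of 0.05 in edgeR, 4 had an unadjusted p under 0.05, and DESeq2 called 2. Over all 16267 clusters tested, edgeR called 517 higher in Old (3.18%) and 332 lower (2.04%), 19.8% had an unadjusted p under 0.05, and DESeq2 called 1991. The median log2 ratio of Old over Young was 0.03 for the 24 and -0.04 over all clusters. Tra2a, an SR-like splicing activator, had 69.8 ± 9.20 CPM in Young, 106 ± 20.3 CPM in Mid and 125 ± 30.2 CPM in Old (SD, n = 3). Its log2 ratio of Old over Young was 0.84 (SE 0.22, adjusted p = 0.0573, edgeR). Rbfox2 had a log2 ratio of 0.57 (SE 0.17, adjusted p = 0.0997, edgeR).

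The summed levels of cell type markers differed between the pools. Of stem cell markers 5 of 13 were named (Fgd5, Tek, Cd34, Ptprc and Gata2), with a sum of 945 to 1159 CPM in Young, 842 to 897 CPM in Mid and 778 to 881 CPM in Old. The lower sum came from Cd34, with 362 ± 219 CPM in Young, 186 ± 29.99 CPM in Mid and 116 ± 28.3 CPM in Old (SD, n = 3). The Young pools were far apart for Cd34, with 614 CPM in the highest. Whether its difference between the ages holds without Young 1 was not tested. Log2 ratios of Old over Young were -1.64 for Cd34, 0.05 for Fgd5, -0.11 for Tek, -0.03 for Ptprc and 0.19 for Gata2. All 5 megakaryocyte markers were named, with a sum of 162 to 338 CPM in Young, 398 to 478 CPM in Mid and 416 to 877 CPM in Old, mostly from Vwf. Pf4 was the other way, with 13.6 CPM in Young and 5.76 CPM in Old, and Gp9 and Gp1ba had log2 ratios of Old over Young of 0.18 and 0.13. The Young sums of these markers lay below all Mid and Old sums. The 2 of 4 B cell markers that were named summed to 5.53 to 22.4 CPM in Young, 0.966 to 12.0 CPM in Mid and 0.949 to 1.70 CPM in Old. Young and Old did not overlap for the B cell sum. The 4 of 5 T and NK cell markers summed to 3.35 to 15.6 CPM in Young, 4.498 to 6.14 CPM in Mid and 7.54 to 55.6 CPM in Old, the highest in Old 1. Ncr1 alone among the named markers was listed at 0 in a pool. The 2 of 8 myeloid markers (Elane and S100a8) summed to 931 to 1169 CPM in Young, 519 to 1246 CPM in Mid and 691 to 904 CPM in Old. The 3 of 5 erythroid markers summed to 6.84 to 9.89 CPM in Young, 5.18 to 11.98 CPM in Mid and 4.31 to 7.40 CPM in Old. The 3 of 6 endothelial or stromal markers summed to 19.4 to 33.5 CPM in Young, 8.10 to 22.5 CPM in Mid and 4.71 to 21.1 CPM in Old. In edgeR, at an adjusted p under 0.05 in Old against Young, Ncr1 was higher and Cd34, Cdh5 and Plvap were lower, and no other named marker was called. Ncr1 was near the floor, with means of 0.0441 CPM in Young and 1.15 CPM in Old and at most 2.25 CPM in a pool. Cdh5 and Plvap had at most 11.5 and 12.7 CPM in a pool. The part of any of these cells in the transcript shares was not tested.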

How the data were processed

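RNA-seq of LSP cells was analysed in 9 pools, 3 each of Young, Mid and Old, mapped to groups by their labels. The MeDIP-seq samples of the series were not used here. The authors deposited, for each gene cluster and transcript, an expected count of reads (an estimated count, not normalized) and a fraction, the deposited share of all transcripts in a file. The submitters' processing notes for the whole series name RSEM 1.1.21, Bowtie 0.12.7, BWA 0.5.8, SAMtools and the build mm9. By the methods of the study, BWA 0.5.8 aligned the MeDIP-seq reads, which were not used here. Reads that fit several transcripts are split by an estimate, so shares of forms with few distinguishing bases are uncertain, as are those of near-identical genes.

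Counts were summed over the files of a pool, rounded and normalized by TMM. Usage of each transcript relative to its cluster was tested with diffSpliceDGE of edgeR 4.0.16 (R 4.3.3) over 25494 transcripts kept by filterByExpr, and totals with the edgeR quasi-likelihood test over 16267 clusters, with all 9 pools in the fit, no covariate and Benjamini-Hochberg adjustment at 0.05. The SE of a usage difference was worked back from its p-value under a normal distribution, and that of a total from its F statistic. On simulated counts, fitted log2 changes centred on the true ones, but the usage test called unchanged transcripts more often than its threshold states. The alternatives were DESeq2 1.42.0, limma 3.58.1, other filters, size factors, shares from counts, single files, and left-out pools. Leaving out pools with 1 file was tried after seeing the data for the usage tests, as were all share settings for the named genes. The methods of the study give no test for these data.

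The ratio of a count to its fraction gave the length of a transcript. Lengths within 2 bp and the order of clusters along the genome were matched to GENCODE vM1 on NCBIM37 with a hidden Markov model, and a name was given at a posterior of 0.9 or more. This departs from the rule planned, which asked for 2 matching lengths and used the order only as a check. It named 4618 clusters, against a mean of 71.0 when all lengths were shifted and 128 when lengths were shifted in place (2.77%). In the second check the share was 4.85% for names on several near lengths, as for Gcnt2, and 5.57% for those on 1 near length, as for Wwp2. The names are inferred. Of the 20 names, 4 rest on 2 or more exact lengths, 11 on 1 exact length, 1 on several near lengths and 4 on 1 near length. Named genes are the first 25 by size of the share difference that have a symbol, here all 20. The unnamed clusters described were picked after their values were seen. The genes, lists and comparisons were chosen with earlier results of these data known.

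Total estimated counts per pool ranged from 74819481 to 200461974. Each age had 3 pools, which limits the precision of every mean.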

Additional observations from a re-analysis of the deposited data

How the results depend on the processing

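The rule chose 46 clusters, and 131 with a limit of 10 points, 22 with 20 points, 16 with a mean of at least 20 CPM and 12 with ratios of totals from 0.9 to its reciprocal. It was 41 with shares from counts, 64 and 48 with single files, 47 with the size factors of DESeq2 and 58 with only the pools that have a pair of files, of which 35, 35, 28, 46 and 16 were among the 46. Leaving out 1 pool in turn gave 44 to 127 clusters: 87 without Young 1, with 16 of the 46, 114 without Young 2, 127 without Young 3, 117 without Old 1, 94 without Old 2 and 91 without Old 3. For the 20 named genes the difference moved by more than 1 SD in 9 of 200 values over 10 settings. The SD was that between pools of an age, taken over Young and Old with Young 1 included. It was wide where Young 1 stood apart, so a small count does not mean stable differences. Rad50 went from -18.7 to -6.13 points without Young 1 and still counted as within 1 SD. In the 7 settings that leave out pools the rule fixed the direction of the difference, so nothing is read from the direction there.

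In Mid against Young, edgeR called 65 transcripts, and the count was 754 with DESeq2, 327 with limma, 37 with at least 10 counts in every pool, 461 with a covariate for pools of 1 file, 726 with only pools with a pair of files, and 21 to 327 with 1 pool left out, the highest without Young 1 and 31, 22 and 21 without Mid 1, Mid 2 and Mid 3. Among the 68 transcripts of the chosen genes 1 was called, and it was 9 with DESeq2, 4 with limma, 2 with at least 10 counts, the covariate, the later file or paired files only, 0 with only both groups in the fit, and 0 to 2 with 1 pool left out (2 without Young 1, 0 without each other pool of these ages). In Old against Mid the 47 calls were 461 with DESeq2, 185 with limma, 12 with at least 10 counts, 457 with the covariate, 137 with only both groups, 574 with paired files only and 16 to 82 with 1 pool left out (82 without Old 1, 16 without Old 3, and 31, 23 and 24 without Mid 1, Mid 2 and Mid 3). Of the 68, 0 were called, and it was 2 with DESeq2, 1 with limma and 1 with paired files only. In Old against Young the 8 calls were 295 with DESeq2, 5 with no filter, 1 with at least 10 counts, 13 with the later file, 49 with paired files only and 1 to 52 with 1 pool left out (52 without Young 1, 13 without Young 2, 1 without Old 2, 5 without Old 3). Of the 24 splicing factors, 2 were called with DESeq2 (1991 of all clusters), 2 with the covariate (2363) and 0 to 1 with 1 pool left out (1 without Young 1, with 1578 of all clusters, or without Old 3, with 472). The cause of these shifts was not tested.

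Pools with the same replicate number had correlated deviations of 0.375, 0.42 and 0.061 between Young and Old, of -0.148, -0.221 and 0.052 between Young and Mid, and of -0.224, -0.23 and -0.126 between Mid and Old. Not every pair was above 0.1 and the labels name no shared batch, so the numbers were not taken to pair the samples, although Young 1 and Young 2 correlated best with Old 1 and Old 2. With the number as a replicate block, the calls were 84 in Mid against Young with 2 of the 68, 74 in Old against Mid, 2 in Old against Young, and 1 splicing factor among 622 of all clusters. Forms with under 100 counts in a pool are limited by depth.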
